A study of Mus musculus with 9 samples.

Results

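The 7 genes described here were the simple keratins Krt7, Krt8, Krt18 and Krt19 and the basal keratins Krt5, Krt14 and Krt17, taken by name from 19072 genes with a value in at least 1 library. Of these, 6 had a value and 6 of the 7 passed the filter on low counts, through which 13682 genes were tested. Krt5 was listed in no library. RNA sequencing was done on 4T1-TGL cells grown in DMEM/F12; their parent, 4T1, is a mammary carcinoma line from BALB/c mice. The groups were Ctrl, in which Malat1 was wild type, and the Malat1 knockout lines KO1 and KO2, with 3 libraries each. Malat1 is a long nuclear noncoding RNA. All 9 libraries came from the same 4T1-TGL background. The labels give neither how the knockouts were made nor whether each line is a single clone. Whether the 3 libraries of a group came from separate cultures is not stated either, so a p-value here reflects library-to-library spread and no more.

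Keratins are the intermediate filament proteins of epithelial cells. A type I keratin pairs with a type II keratin, and these heterodimers assemble into filaments that run between desmosomes and hemidesmosomes. In the mammary gland, luminal cells are known for the simple pair Krt8 (type II) and Krt18 (type I), together with Krt7 (type II) and Krt19 (type I). Basal and myoepithelial cells are known for Krt5 (type II) with Krt14 (type I), and Krt17 (type I) is a basal keratin also found in stressed epithelium. A keratin without a partner of the other type is usually degraded, so the types are often compared.

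Total expected counts per library lay between 30655924 and 35406395. Malat1 was at 462 ± 54.9 CPM (counts scaled to library size, SD, n = 3) in Ctrl, 3.40 ± 0.669 in KO1 and 126 ± 31.5 in KO2, so KO2 kept 27.3% of the Ctrl level and KO1 kept 0.740%. The first principal component held 66.3% of the variance and set KO2 apart from the other 6 libraries. The second KO2 library held more transcripts of stromal and vascular genes than the other KO2 libraries: Col3a1, a fibrillar collagen, was at 0.39 FPKM against 0.01 in each of them, and Cdh5, the gene of VE-cadherin, at 0.28 against 0.01 and 0. Without it, the call and direction of every tested member against Ctrl were as with it. Genes were called at an edgeR adjusted p under 0.05, which 30.5% of tested genes passed in KO1 against Ctrl, 54.1% in KO2 against Ctrl and 55.0% in KO2 against KO1. Both contrasts against Ctrl use the same 3 Ctrl libraries.

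Krt8 and Krt18, the main simple pair, rose in both knockout lines, and more in KO2 than in KO1. Krt7 was not called in KO1, at a log2 fold change of 0.08, and fell 62.6-fold in KO2. Krt14 and Krt17 fell in both lines, to between 0 and 8 counts over 3 libraries, from levels that were already low in Ctrl. Krt19 was near the detection limit in every group. Of the 4 simple keratins, 2 rose and none fell in KO1, and 2 rose and 1 fell in KO2. Of the 3 basal keratins, 2 fell in each line, Krt14 and Krt17. Both passed the filter on low counts through their Ctrl libraries, so their direction follows in part from that filter. Set against calls among all tested genes, 15.6% were higher and 14.9% lower in KO1, and 24.6% were higher and 29.5% lower in KO2. In bulk RNA, fewer cells with a transcript and less of it per cell cannot be told apart.

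**Figure D1:**
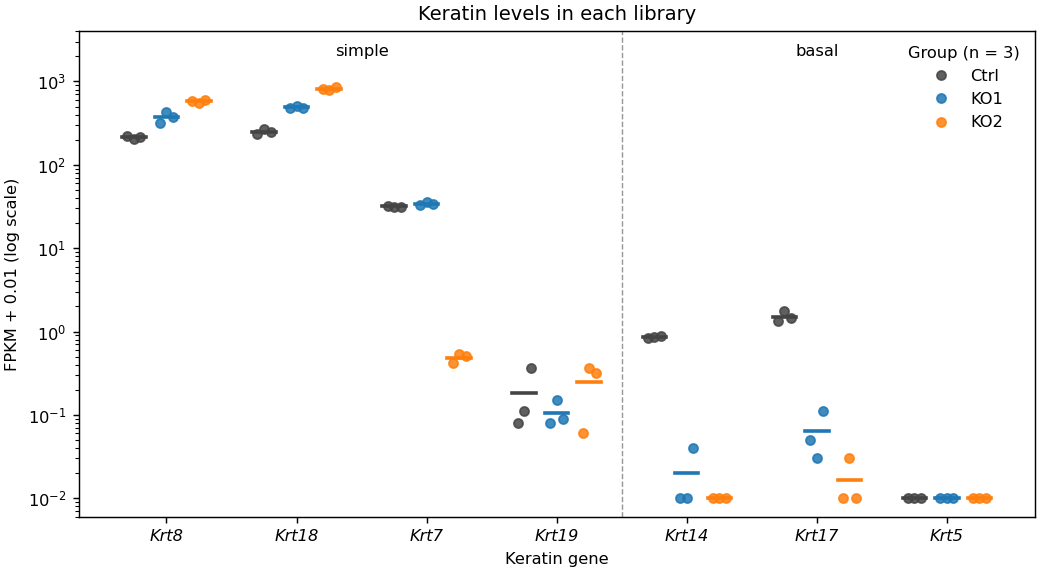
FPKM plus 0.01 on a log axis for each of the 7 keratins, with 1 point per library and a bar at the mean of each group of 3. Krt8 and Krt18 step up from Ctrl to KO1 to KO2, Krt7 drops in KO2 alone among the groups, and Krt14 and Krt17 leave the Ctrl level in both lines. Points at the bottom are libraries in which the gene was not listed.

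Krt8 lies on chromosome 15 at chr15:101996711-102004342 (GRCm38), and Krt18 starts 23.9 kb away at chr15:102028216-102032026, the one type I keratin gene that sits inside the type II cluster. Krt7 lies in the same cluster at chr15:101412403-101427806. The 250 bases before each start, from RefSeq (GRCm38.p6), are shown because the first pair moved together while Krt7, on the same chromosome arm, did not. Capitals mark matches to the GC box GGGCGG and to the E-box CAGGTG on either strand. The Krt18 stretch is chr15:102027966-102028215 on the plus strand, that of Krt8 is chr15:102004343-102004592 on the minus strand and that of Krt7 is chr15:101412153-101412402 on the plus strand.
Krt18: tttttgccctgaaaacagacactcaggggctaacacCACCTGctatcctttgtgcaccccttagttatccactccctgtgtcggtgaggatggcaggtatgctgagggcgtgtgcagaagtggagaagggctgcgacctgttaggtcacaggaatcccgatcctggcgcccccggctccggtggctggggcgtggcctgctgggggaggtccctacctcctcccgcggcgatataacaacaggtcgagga
Krt8: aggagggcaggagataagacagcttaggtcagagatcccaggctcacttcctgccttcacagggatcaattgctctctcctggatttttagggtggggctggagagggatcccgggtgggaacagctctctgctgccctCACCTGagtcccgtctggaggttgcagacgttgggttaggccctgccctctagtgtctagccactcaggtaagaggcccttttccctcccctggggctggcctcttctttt
Krt7: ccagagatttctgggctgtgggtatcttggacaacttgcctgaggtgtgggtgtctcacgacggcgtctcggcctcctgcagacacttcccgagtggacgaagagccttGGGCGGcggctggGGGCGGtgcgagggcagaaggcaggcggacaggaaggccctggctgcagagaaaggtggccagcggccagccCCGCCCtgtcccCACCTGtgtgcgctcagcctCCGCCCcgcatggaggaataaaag

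Each of the 3 stretches held 1 E-box, its first base 214 bases before the start in Krt18, 111 in Krt8 and 44 in Krt7. Over 32851 windows of this length in the RefSeq table, 17.2% held an E-box. The window before Krt5, which was listed in no library, also held 1, its first base 128 bases before the start. The window before Krt14 held none, and Krt17 and Krt19 had no window in that table. The Krt7 stretch held 4 GC boxes and those of Krt8 and Krt18 held none, and 32.7% of all windows held at least 1. The TATA box (TATAAA) was in none of the 3 stretches on either strand, against 12.4% of all windows. The same held for the CAAT box (CCAAT), which 33.8% of windows held, and for the AP-1 site (TGANTCA), which 6.75% held. No marked matches overlapped. The motifs are letter matches, with no binding measured, and the E-box was added after the members' values were seen.

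Krt18, the type I partner of the pair, had FPKM (fragments scaled by transcript length and library size) of 233, 268 and 247 in the Ctrl libraries. In KO1 it was at 479, 509 and 482, and in KO2 at 813, 794 and 848. The 3 groups did not overlap, which by CPM held for 42.7% of tested genes in KO1 against Ctrl, 65.7% in KO2 against Ctrl and 62.2% in KO2 against KO1. Krt18 was 1.92-fold higher in KO1 (log2 fold change 0.94, SE 0.07, edgeR adjusted p = 2.99e-06) and 3.46-fold higher in KO2 (1.79, SE 0.07, adjusted p = 6.47e-09). From all tested genes, 740 had a larger fold change in KO1 and 196 in KO2.

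Krt8, the type II partner, was at 223, 204 and 217 FPKM in Ctrl. In KO1 it was at 320, 430 and 369 FPKM, the widest spread among its groups, and in KO2 at 579, 548 and 599. Again the groups were separate. Krt8 was 1.70-fold higher in KO1 (log2 fold change 0.77, SE 0.10, edgeR adjusted p = 0.000165) and 2.83-fold higher in KO2 (1.50, SE 0.10, adjusted p = 3.50e-07). Of the 100-base windows of its transcript, 16.9% also occur in the pseudogene Krt8-ps. No gene of that name was listed in any library, and the expected counts of Krt8 were whole numbers in every library. Krt18 shared no window of this length with another gene.

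Between the lines, Krt8 was higher in KO2 than in KO1 by 0.73 on the log2 scale (SE 0.10, edgeR adjusted p = 9.06e-05) and Krt18 by 0.85 (SE 0.07, adjusted p = 2.14e-06). KO2 was the line with more Malat1 left. Both genes were among the more abundant transcripts of these cells: by mean FPKM, Krt18 stood at 249 ± 17.3 (SD, n = 3) in Ctrl, 490 ± 16.4 in KO1 and 818 ± 27.9 in KO2, and Krt8 at 215 ± 9.49, 373 ± 54.9 and 575 ± 25.8. The 7 genes together took 0.113% of all FPKM in Ctrl, 0.205% in KO1 and 0.302% in KO2.

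Genes beside Krt8 and Krt18 were also higher in KO1. Of 18 tested genes within 500 kb of Krt8 that are not keratins, 13 rose and none fell in KO1, with a median log2 fold change of 0.43, against a median of 0.00 over all tested genes. In KO2, 8 of the 18 rose and 1 fell, with a median of 0.15. Of all tested genes, 15.6% were called higher and 14.9% lower in KO1, and 24.6% and 29.5% in KO2. Sp1, a general transcription factor gene in this window, rose by 0.23 in KO1 (edgeR adjusted p = 0.0142), and Igfbp6, which encodes an insulin-like growth factor binding protein, rose by 0.54 (adjusted p = 0.00322). In the stretch from 90 to 100 Mb of chromosome 15, 48.6% of 72 tested genes were called higher in KO1 and 0 lower, with a median of 0.30. From 100 to 110 Mb, 51.9% of 54 genes were called higher and 1 lower, with a median of 0.33. In KO2 the medians of these stretches were -0.02 and -0.03. Krt8 and Krt18 lay above this regional median in both lines. In KO1 the margin over single neighbours was small for Krt8. Csad, with the largest rise among the non-keratin genes within 500 kb, rose by 0.73 and Spryd3 by 0.68, against 0.77 for Krt8 and 0.94 for Krt18. In KO2 Csad was at 0.26 and Spryd3 at -0.16. The part of the region in the KO1 values was not tested, and the windows and the neighbouring genes named were chosen after the members' values were seen.

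**Figure D2:**
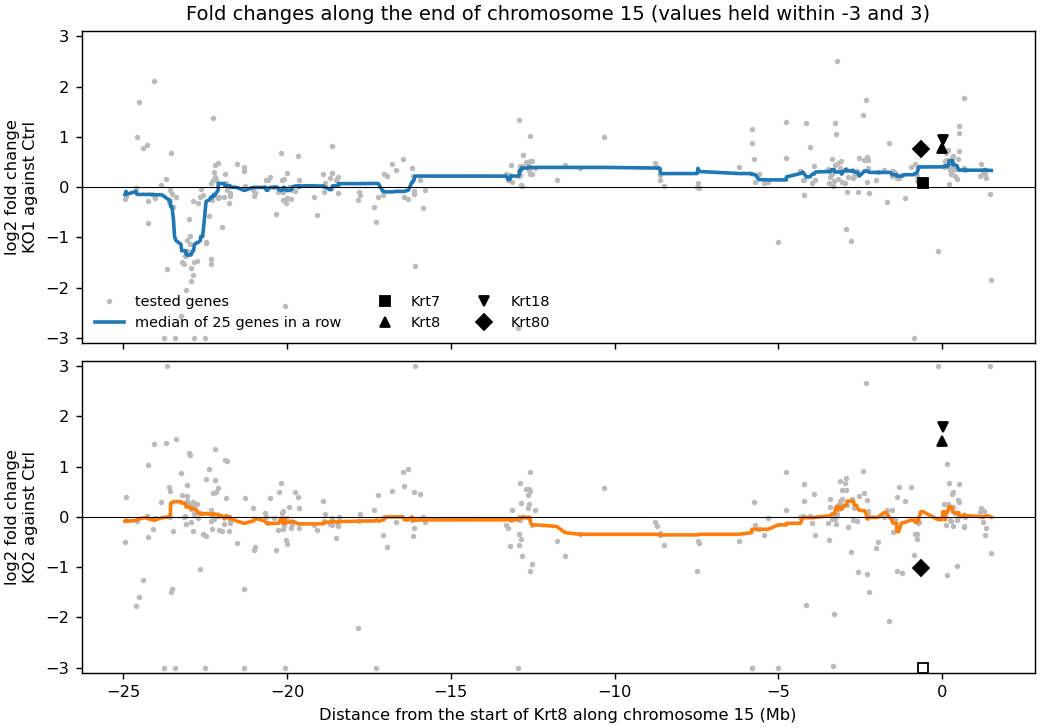
Log2 fold change of tested genes against distance from Krt8 along the end of chromosome 15, in KO1 (top) and KO2 (bottom), with the median of 25 genes in a row as a line and keratins as black marks. Values outside -3 to 3 are drawn at the edge, the open square being Krt7 in KO2. The KO1 line lies above 0 near Krt8, while in KO2 Krt8 and Krt18 stand apart from a line near 0.

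Krt7, the other type II keratin of simple epithelium, was at 32.33, 31.15 and 31.38 FPKM in Ctrl and at 32.58, 35.51 and 34.27 in KO1. By FPKM the lowest KO1 library was just above the highest Ctrl library, and by CPM the groups overlapped. The log2 fold change in KO1 was 0.08 (SE 0.07, edgeR adjusted p = 0.448). In KO2 it was at 0.41, 0.52 and 0.50 FPKM, from 20, 25 and 24 counts, against 1655, 1714 and 1573 counts in Ctrl. The KO2 libraries lay far below all others and close to each other. The log2 fold change in KO2 was -5.97 (SE 0.11, adjusted p = 3.50e-11), and the KO2 level was 1.59% of Ctrl (exact 95% interval 1.23 to 2.01, counting error only). Against KO1, Krt7 was lower in KO2 by a log2 fold change of -6.05 (SE 0.11, adjusted p = 2.71e-11). From all tested genes, 281 had a lower fold change in KO2 against Ctrl.

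The genes around Krt7 were also looked at. Of 8 tested genes within 500 kb of Krt7 that are not keratins, 0 rose and 2 fell in KO2, with a median log2 fold change of -0.23. Among all tested genes, 24.6% were called higher and 29.5% lower in KO2. Krt80, a type II keratin of many epithelia that lies near Krt7, went from 16.4 ± 1.77 FPKM (SD, n = 3) in Ctrl to 28.4 ± 2.20 in KO1 and 7.66 ± 0.760 in KO2. It rose by 0.76 on the log2 scale in KO1 (edgeR adjusted p = 0.000258) and fell by 1.02 in KO2 (adjusted p = 1.52e-05).

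Krt19, the smallest keratin and a luminal marker in mammary gland, was at 0.07, 0.10 and 0.35 FPKM in Ctrl, 0.07, 0.14 and 0.08 in KO1, and 0.05, 0.36 and 0.31 in KO2. These values rest on 20 counts over the 3 Ctrl libraries, 9 over KO1 and 30 over KO2, and all groups overlapped. It passed no test: the log2 fold change was -1.10 in KO1 (SE 0.96, edgeR adjusted p = 0.421), 0.76 in KO2 (SE 0.78, adjusted p = 0.434) and 1.85 in KO2 against KO1 (SE 0.90, adjusted p = 0.101). Single libraries decide these values: without the third Ctrl library the KO1 value was 0.30, and without the first KO2 library the difference between the lines was 2.35 (adjusted p = 0.0348). With so few counts and this spread, no change of Krt19 could be called from all 9 libraries.

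Krt17 lies on chromosome 11 at chr11:100256215-100261029, in the type I cluster. It was at 1.31, 1.75 and 1.44 FPKM in Ctrl, from 66, 95 and 71 counts. In KO1 it was at 0.04, 0.02 and 0.10 FPKM, from 2, 1 and 5 counts. In KO2 it was at 0, 0.02 and 0, with 1 count in all. Neither line overlapped Ctrl. The KO1 level was 3.52% of Ctrl (exact 95% interval 1.50 to 7.04, edgeR adjusted p = 1.45e-05) and the KO2 level 0.490% (0.0124 to 2.76, adjusted p = 2.09e-06). The KO2 level was 13.9% of that in KO1 (0.314 to 104), a difference that was not called (edgeR adjusted p = 0.0592). It was called without the second KO1 library (adjusted p = 0.0313) and without the second KO2 library (adjusted p = 0.0340), which held the 1 KO2 count.

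Krt14, the type I keratin that pairs with Krt5 in basal cells, lies close by at chr11:100203162-100207510. It was at 0.82, 0.85 and 0.88 FPKM in Ctrl, from 44, 48 and 41 counts. In KO1 it was not listed in 2 libraries and stood at 0.03 in the third, which rounds to 1 count, and it was listed in no KO2 library. Both Krt14 and Krt17 passed the filter on low counts through their Ctrl libraries, so that their falls follow in part from that filter. The KO1 level was 0.767% of Ctrl (exact 95% interval 0.0193 to 4.35, edgeR adjusted p = 4.25e-05). The KO2 level of Krt14 was at least 25.7-fold lower, taking as its floor 3 counts per group and whatever the listing minimum could hide (edgeR adjusted p = 1.40e-05). Of its 100-base windows, 2.88% also occur in Krt16, and none of those of Krt17 occur in another gene. Krt5, the type II partner, had no listed value in Ctrl or in either line, so Krt14 was measured without it.

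**Figure D3:**
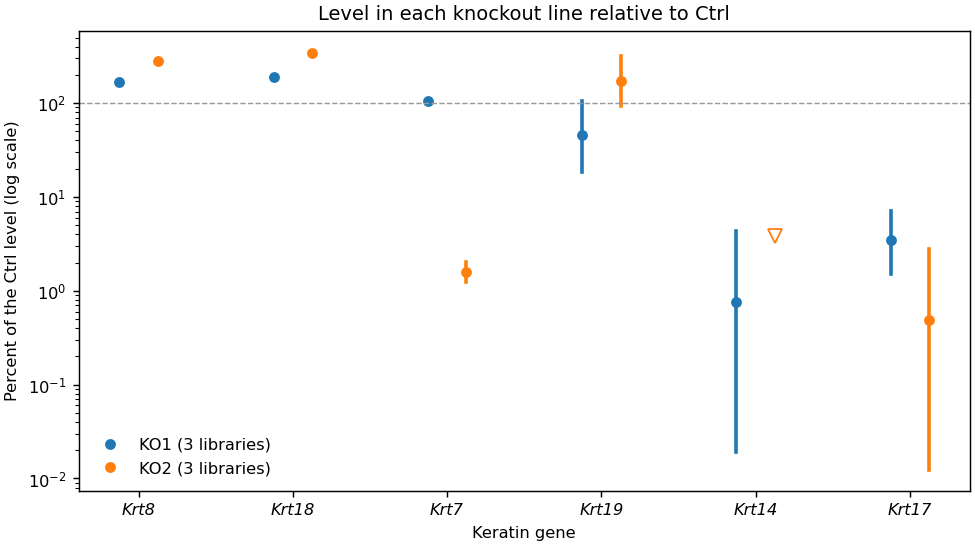
Level in KO1 and KO2 as a percent of Ctrl on a log axis, from counts summed over 3 libraries per group, with exact 95% intervals that cover counting error only and are narrower than the point where they cannot be seen. The dashed line is the Ctrl level, and the open triangle is the upper limit for Krt14 in KO2, which had 0 counts. Krt8 and Krt18 lie above the line in both lines, Krt14 and Krt17 below. Krt7 is at 106% in KO1, with an interval of 101 to 109.8 for these counts, and at 1.59% in KO2.

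The genes around Krt17 were described in the same way. Of 14 tested genes within 500 kb of Krt17 that are not keratins, 3 rose and 0 fell in KO1 and 5 rose and 2 fell in KO2, with medians of 0.08 and -0.01. Among all tested genes, 15.6% were called higher and 14.9% lower in KO1, and 24.6% and 29.5% in KO2, so these counts do not stand above the background. Krt16, a type I keratin of stressed and wounded epithelium that neighbours Krt17, went from 0.817 ± 0.194 FPKM (SD, n = 3) in Ctrl to 0.187 ± 0.0777 in KO1 and 0.0200 ± 0.0200 in KO2. It fell by 2.13 on the log2 scale in KO1 (edgeR adjusted p = 0.00186). In KO2 it fell to 3 counts from 126, or 2.71% of Ctrl (exact 95% interval 0.551 to 8.10, adjusted p = 2.58e-05).

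Summed over members, the simple keratins were at 496 ± 7.35 FPKM (SD, n = 3) in Ctrl, 897 ± 71.9 in KO1 and 1394 ± 53.0 in KO2. The basal keratins summed to 2.35 ± 0.236 FPKM in Ctrl and to 0.0633 ± 0.0586 in KO1, and in KO2 the 3 libraries had 0, 0.02 and 0. The basal share of the sum was 0.471% ± 0.0403 in Ctrl and 0.00718% ± 0.00664 in KO1, so the Ctrl cells already carried almost only simple keratin transcripts. Krt8 and Krt18 alone made up 93.1% of the sum in Ctrl, 96.2% in KO1 and 99.9% in KO2.

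Type I transcripts made up more of the sum in the knockout lines. Summed type I FPKM over summed type II FPKM was 1.03 ± 0.114 (SD, n = 3) in Ctrl, 1.22 ± 0.133 in KO1 and 1.42 ± 0.0234 in KO2. The Ctrl range of 0.924 to 1.15 overlapped the KO1 range of 1.09 to 1.36, and the KO2 range of 1.40 to 1.45 lay above both. Krt18 over Krt8 alone went from 1.17 ± 0.134 to 1.33 ± 0.157 and 1.42 ± 0.0233. For this ratio the KO2 range of 1.40 to 1.45 lay inside the KO1 range of 1.18 to 1.50, which the Ctrl range of 1.05 to 1.31 overlapped. Krt7 made up 12.9% ± 0.338 of the type II sum in Ctrl, 8.45% ± 0.802 in KO1 and 0.0830% ± 0.0121 in KO2. These sums and ratios are descriptions of the members and were not tested.

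**Figure D4:**
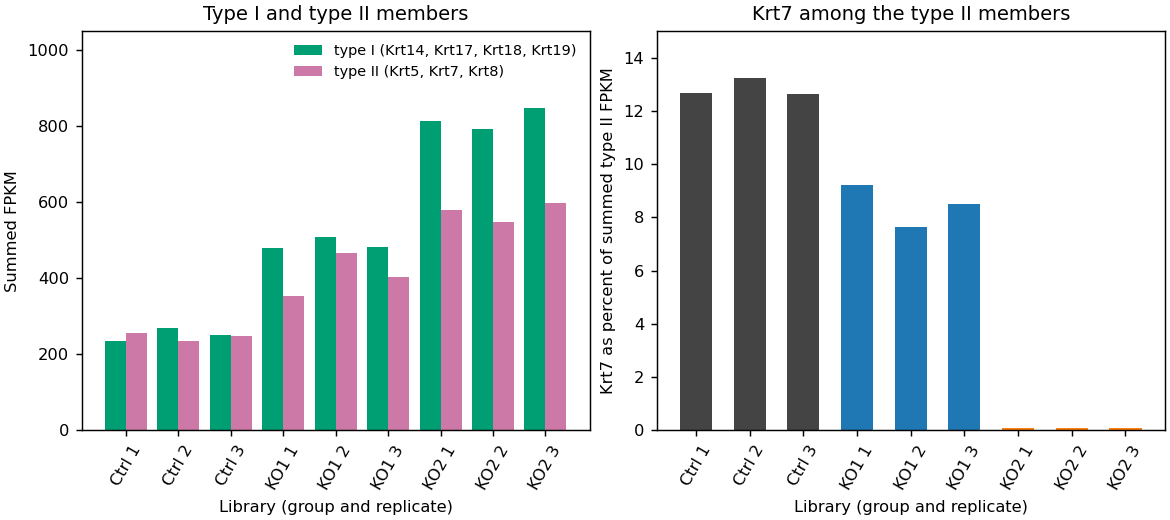
Left, summed FPKM of the type I and type II members in each of the 9 libraries. Right, Krt7 as a percent of the summed type II FPKM in the same libraries. Both kinds of bar are tallest in KO2, type I exceeds type II in each library of both knockout lines and in 2 of 3 Ctrl libraries, and the Krt7 bars go from a mean of 12.9% in Ctrl to 0.0830% in KO2.

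Few other keratins were measured. Of 24 further type I genes, 13 were listed and 4 tested, of which 1 rose and 1 fell in KO1 and 2 rose and 1 fell in KO2, with median log2 fold changes of 0.52 and 2.71. Krt13, a keratin of mucosal epithelia, was at 0.0267 ± 0.0462 FPKM (SD, n = 3) in Ctrl, 0.483 ± 0.102 in KO1 and 0.937 ± 0.292 in KO2, and rose in both lines (edgeR adjusted p = 0.00154 and 7.61e-05). Its 3 Ctrl counts put Ctrl at 5.35% of KO1 (exact 95% interval 1.07 to 16.5) and 2.54% of KO2 (0.515 to 7.62). Krt23, a keratin of simple epithelia, was at 0.0600 ± 0.0400, 0.127 ± 0.0777 and 5.67 ± 0.739 FPKM, and rose in KO2 by 6.60 on the log2 scale (adjusted p = 1.13e-07). Krt10, the type I keratin of the suprabasal epidermis, was at 1.20 ± 0.0265, 1.35 ± 0.125 and 1.37 ± 0.108 FPKM and passed no test. Of 22 further type II genes, 9 were listed and 2 tested, Krt80 and Krt76, with 1 higher in KO1 and 1 higher and 1 lower in KO2 and medians of -0.25 and 1.63. The medians over all tested genes were 0.00 in KO1 and -0.03 in KO2, and 30.5% and 54.1% of them were called. Krt76, a keratin of oral epithelium, was at 0.0133 FPKM in Ctrl and 0.273 in KO2 (edgeR adjusted p = 0.000202), with Ctrl at 4.55% of KO2 (0.911 to 14.0). These levels were far below those of Krt8 and Krt18. Krt13 passed the filter on low counts through its knockout libraries, Krt23 and Krt76 through those of KO2, and Krt16 through those of Ctrl. The directions of these genes, and the medians over so few genes, follow in part from that filter.

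Vim, the intermediate filament protein of mesenchymal cells, exceeded every keratin by FPKM, at 1573 ± 20.6 (SD, n = 3) in Ctrl, 1443 ± 170 in KO1 and 2137 ± 59.9 in KO2. It rose by 0.52 on the log2 scale in KO2 (edgeR adjusted p = 0.000343), and its KO1 value was -0.15 (adjusted p = 0.187). Of 10 tested intermediate filament genes outside the keratins, 0 rose and 3 fell in KO1 and 3 rose and 4 fell in KO2, with medians of -0.15 and 0.05. That is 30% called in KO1 and 70% in KO2, against 30.5% and 54.1% of all tested genes. Lmnb1, a nuclear lamin, rose by 1.02 in KO2 (adjusted p = 0.000858). Des, the muscle filament protein desmin, fell from 0.720 ± 0.182 FPKM in Ctrl to 0.0867 ± 0.0351 in KO1 and 0.0167 ± 0.0208 in KO2. It passed the filter on low counts through its Ctrl libraries, so its direction follows in part from that filter.

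The label of a breast cancer line was set against 6 markers of simple epithelium, the 4 simple keratins, Epcam and Cdh1. Krt8, Krt18 and Krt7 were expressed in Ctrl, and Krt19 was near its detection limit. Epcam, an epithelial adhesion molecule, was at 0.223 FPKM in Ctrl, 0.0267 in KO1 and 0.0167 in KO2. Cdh1, the gene of E-cadherin, was at 0.01, 0.01 and 0.0367 FPKM. Neither of these 2 genes passed the filter on low counts. Of the 22 luminal mammary markers, a list that also holds Epcam and Cdh1, 21 were listed and 10 tested, with a summed FPKM between 222 and 237 in Ctrl. Most of that sum came from Cd24a, a surface protein gene, at 88.1 FPKM, Areg at 86.1 and Gata3 at 40.5.

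Genes that anchor keratins to the membrane moved in both directions. Of 26 desmosome, hemidesmosome and plakin genes, 18 were tested, of which 5 rose and 4 fell in KO1 and 3 rose and 8 fell in KO2, with median log2 fold changes of 0.01 and -0.40. The called share was 50% in KO1 and 61.1% in KO2, against 30.5% and 54.1% of all tested genes, so the KO2 count is near the background. Itgb4, the integrin subunit of hemidesmosomes, rose by 0.45 in KO1 (edgeR adjusted p = 0.00151) and by 1.70 in KO2 (adjusted p = 2.32e-08). Ppl, the plakin periplakin, rose by 0.97 and 0.79. Evpl, the related envoplakin, rose by 1.84 in KO1 and fell by 0.99 in KO2. Lamb3, a chain of the laminin that hemidesmosomes bind, fell from 2.59 ± 0.621 FPKM (SD, n = 3) in Ctrl to 0.880 ± 0.161 in KO1 and 0.0367 ± 0.0351 in KO2. Itga6, the partner of Itgb4, fell by 0.41 in KO1 (adjusted p = 0.0123), and its KO2 value was 0.14 (adjusted p = 0.261). The abundant Cd151, a tetraspanin of hemidesmosomes, and Dst, a plakin, passed neither test.

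Genes that link keratin to desmosomes or hemidesmosomes were uneven. Jup, the gene of plakoglobin, rose by 0.56 in KO1 and 0.49 in KO2. Pkp2, the plakophilin of simple epithelia, fell from 5.62 FPKM in Ctrl to 3.08 in KO1 and 0.260 in KO2. Pkp3, another plakophilin, rose by 0.71 in KO1 and fell by 0.47 in KO2. Plec, the gene of plectin, which ties keratin to hemidesmosomes, fell by 0.37 in KO1 (edgeR adjusted p = 0.00276) and was at -0.02 in KO2 (adjusted p = 0.856). Dsp, the gene of desmoplakin, was at 0.0333, 0.0333 and 0.00667 FPKM, close to the listing minimum of 0.01. None of the Dsg and Dsc genes of the list, which encode desmosomal cadherins, passed the filter on low counts. The genes of this paragraph were singled out for their role after the values were seen.

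**Figure D5:**
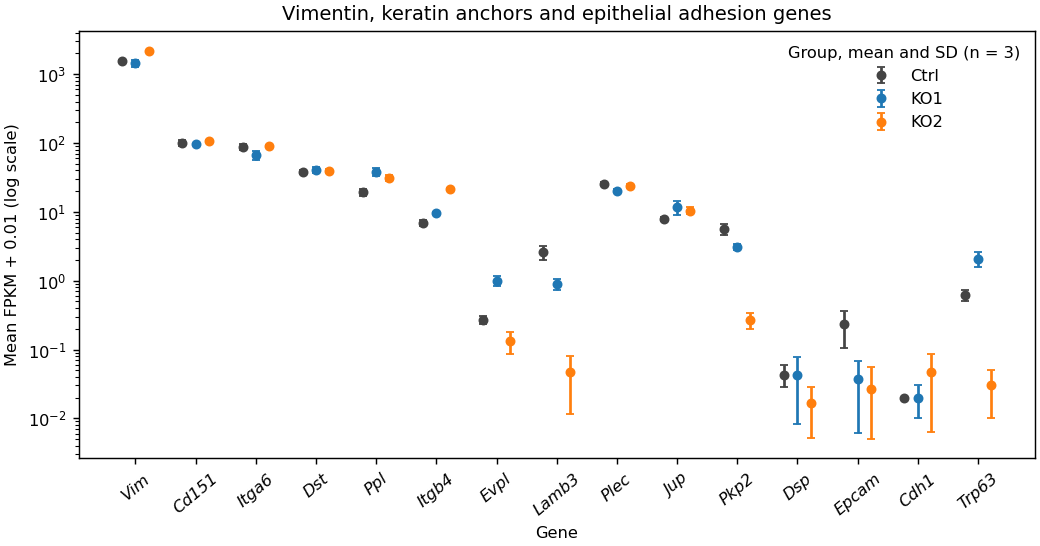
Mean FPKM plus 0.01 with SD (n = 3) on a log axis for vimentin, keratin anchoring genes, Epcam, Cdh1 and Trp63. Vim is the highest at 1573 FPKM in Ctrl, Itgb4 steps up to KO2, Lamb3 and Pkp2 step down, and Dsp, Epcam and Cdh1 lie near the bottom. Error bars that would pass 0 end above it.

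Among 27 transcription factors tied to keratin genes, 21 were tested, of which 5 rose and 7 fell in KO1 and 3 rose and 16 fell in KO2, with medians of -0.10 and -1.10. The called share was 57.1% in KO1 and 90.5% in KO2, against 30.5% and 54.1% of all tested genes. Trp63, which encodes p63, the factor of basal epithelial cells, was at 0.610 ± 0.105 FPKM (SD, n = 3) in Ctrl, 2.06 ± 0.515 in KO1 and 0.0200 ± 0.0200 in KO2. It rose by 1.65 in KO1 (edgeR adjusted p = 0.00161) and fell by 4.64 in KO2 (adjusted p = 2.41e-05). Tfap2c, an AP-2 factor, rose by 1.21 and 2.15, from 0.190 FPKM in Ctrl. Cebpb, a bZIP factor, fell by 1.10 in KO2. Gli1, a Hedgehog effector, fell by 3.24 in KO1 and fell by 2.98 in KO2, from 0.403 FPKM. It passed the filter on low counts through its Ctrl libraries, so its direction follows in part from that filter.

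Lineage markers were spread in both directions too. Of 22 luminal mammary markers, 10 were tested, with 3 higher and 4 lower in KO1, 2 higher and 6 lower in KO2, and medians of -0.26 and -2.40. That is 70% called in KO1 and 80% in KO2, against 30.5% and 54.1% of all tested genes. Gata3, the luminal lineage factor, fell by 0.56 in KO1 (edgeR adjusted p = 0.000209) and rose by 0.60 in KO2 (adjusted p = 4.69e-05). Ehf, an epithelial ETS factor, rose by 2.70 in KO1 (edgeR adjusted p = 1.25e-07). In KO2, Ehf was at 1 count against 377 in Ctrl, or 0.302% (exact 95% interval 0.00762 to 1.69, adjusted p = 1.25e-08). Areg, an EGF receptor ligand, fell by 1.59 in KO1 and fell by 4.04 in KO2. Foxa1 fell by 2.62 in KO1 and by 2.46 in KO2. The largest called rise was that of Ltf in KO1, at 3.83, and that of Cldn4 in KO2, at 2.72. Of 20 basal and myoepithelial markers, 13 were tested, with 4 higher and 6 lower in KO1, 3 higher and 8 lower in KO2, and medians of -0.26 and -1.13. That is 76.9% called in KO1 and 84.6% in KO2, against the same shares of all tested genes. Acta2, the smooth muscle actin of myoepithelium, fell by 2.97 in KO1 and fell by 4.11 in KO2, where the second library was at 0.34 FPKM and the others at 0.01 and 0.03. Dll1, a Notch ligand, fell by 0.77 in KO1 and fell by 6.10 in KO2. Id4, with the largest called rise of this list in each line, rose by 2.19 in KO1 and by 1.08 in KO2, and Mylk and Nt5e also rose in both. Some luminal markers passed the filter on low counts through 1 group, Ltf through KO1 and Cldn4 through KO2. The basal marker Lgals7 had 99, 35 and 9 counts in Ctrl, KO1 and KO2. Counts and medians of both lists may follow in part from that filter.

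Markers of other cell types were checked beside these results. Of 8 fibroblast markers, 7 were listed and 4 tested, and their summed FPKM lay between 51.7 and 53.4 in Ctrl, 45.0 and 47.5 in KO1, and 23.9 and 24.2 in KO2. Pdgfra, a growth factor receptor, carried most of that sum at 43.3, 40.4 and 20.5 FPKM. Of 8 macrophage and leukocyte markers, 7 were listed and 2 tested, with sums of 12.2 to 17.6 in Ctrl, 24.0 to 32.0 in KO1 and 9.55 to 11.5 in KO2, nearly all from Cd68, a lysosomal protein gene. Of 7 endothelial markers, all were listed and 3 tested, with sums of 22.9 to 27.5, 15.4 to 17.8 and 21.5 to 23.7. Thy1, a fibroblast marker, and Nkg7, a marker of cytotoxic lymphocytes, were listed in no library and are named after their values were seen. Plvap, an endothelial vesicle protein gene, fell from 4.93 ± 1.22 FPKM (SD, n = 3) in Ctrl to 1.14 ± 0.0702 in KO1 and 0.713 ± 0.0681 in KO2, and Eng, a TGF-beta co-receptor, was at 19.8, 15.3 and 21.3. Pecam1, which defines endothelium with Cdh5, was at 0.27 FPKM in the second KO2 library and at 0 and 0.03 in the other KO2 libraries. In KO1 it was at 0.12, 0.17 and 0.16, and in Ctrl at 0.02, 0.03 and 0.03. Lyz2, a lysozyme gene of macrophages, was at 0.75 in the second KO2 library and at 0.03 in each of the other KO2 libraries. It was at 0.32, 0.35 and 0.25 in the KO1 libraries and was not listed in Ctrl. Csf1r, a macrophage receptor gene, reached 0.04 at most. The part of these genes in the keratin results was not tested.

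Patterns like those of the members were sought over the 9 libraries, as the root mean square difference between log2 CPM profiles each centred on its own mean, among 10297 named genes with a mean of at least 5 CPM. Krt8 was most like Fam179a at a difference of 0.09, Mmd at 0.10 and Tpcn1 at 0.11. Krt18 was most like Kcnh2 at 0.09, Chrnb1 at 0.10 and Siglec15 at 0.12. The difference between Krt8 and Krt18 was 0.16, so these genes followed each other closely, though not as closely as the nearest others. Krt7 was most like Pdgfrl at 0.20, Osmr at 0.20 and Fam83f at 0.25. Krt14 and Krt17 lay 0.39 apart, which for Krt17 was nearer than any ranked gene outside the members. Both are below 5 CPM themselves, and other genes below that level were not ranked. Krt14 was most like Ecscr at 0.29, Scube3 at 0.32 and Nsf at 0.45, and Krt17 like Ecscr at 0.43, Arf2 at 0.59 and Ctsc at 0.62. Nsf starts 3.62 Mb from Krt14 and Arf2 3.71 Mb from Krt17 on chromosome 11. Krt19, also below 5 CPM, had no near match among the ranked genes, the closest being 0.64 away.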

How the data were processed

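The members and gene lists were chosen with earlier results of these data known. Per the labels, total RNA was sequenced in paired reads on a BGISEQ-500. HISAT and RSEM, with the builds mm10 and GRCm38, are named in the submitters' processing notes, without versions. The authors deposited expected counts, which are estimated counts per gene and not normalised, and FPKM, scaled by transcript length and library size. Genes under an FPKM of 0.01 were not listed and were taken as 0. Samples were grouped by title, since the record's design text names the sixth and ninth samples inconsistently.

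Expected counts were rounded and tested with edgeR 4.0.16 (R 4.3.3; filterByExpr, TMM, robust quasi-likelihood F test, all 9 libraries in 1 fit), with Benjamini-Hochberg adjustment over 13682 genes, after a test on simulated data. SE is the absolute log2 fold change over the root of F. Fitted fold changes of genes with few counts depend on the prior count. Alternatives included DESeq2 1.42.0 and limma 3.58.1. Named genes were the members, Malat1, per list the 4 of highest mean FPKM and the called genes with the largest rise and fall in each line, and the 3 nearest profiles per member, leaving out unnamed models. Epcam and Cdh1 are named as markers of simple epithelium, Col3a1 after its values were seen. Not all genes so chosen are printed.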

Additional observations from a re-analysis of the deposited data

Results flagged for a closer look

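For 3 simple keratins, the difference from Ctrl was not the same in KO1 and KO2 by the edgeR test of KO2 against KO1. Loss of Malat1 and other differences between the lines cannot be told apart in this contrast. Of all tested genes, 55.0% were called in it and 62.2% had groups that did not overlap, so 3 of 6 tested keratins is near the background. For Krt7 the difference was -6.05 on the log2 scale, with every KO2 library below every KO1 library. For Krt8 it was 0.73 and for Krt18 it was 0.85, with every KO2 library above every KO1 library. With 3 libraries per group, no test for a single outlying library was made.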

How the results depend on the processing

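Under all 20 alternatives, Krt8 and Krt18 stayed called higher in both lines against Ctrl, Krt14 and Krt17 called lower in both, Krt7 called lower in KO2 and not called in KO1. Krt8 ranged from 0.65 to 0.87 in KO1 and from 1.42 to 1.54 in KO2 (log2), and Krt7 in KO2 from -6.05 to -4.47. On log2(FPKM + 1), which understates the change of low genes, limma gave Krt14 -0.87 and Krt17 -1.24 in KO1. Called basal keratins in KO2 against KO1 went from 0 to 1 with limma-voom (Krt17, -1.77, adjusted p = 0.0493) and ran from 0 to 1 when libraries were left out in turn. Krt19 in KO1 ran from -1.68 to 0.30 with libraries left out, turning from -1.10 to 0.30 without Ctrl replicate 3. Without Krt17 the basal share in Ctrl was 0.171%. With CPM in place of FPKM, type I over type II was 0.802 in Ctrl, 0.943 in KO1 and 1.09 in KO2, and Krt18 over Krt8 was 0.897, 1.02 and 1.09: CPM is not per length.

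Scaling by total counts moved the split in KO2 against Ctrl from 3367 higher and 4033 lower to 2652 and 4761, and in KO2 against KO1 from 3495 and 4034 to 2514 and 5023, where it shifted the median by -0.11. Same-numbered libraries did not deviate together (r from -0.34 to 0.05, against -0.17 to 0.34 for pairs of unlike number). Whether they shared a preparation or a run cannot be told from these values. With the replicate block, 3365 genes were called in KO1, 6726 in KO2 and 6829 in KO2 against KO1, in place of 4177, 7400 and 7529, and no call among the 6 tested keratins described here changed (other keratins were not followed).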

Other observations

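Proteins that bind or modify keratins were all measured. Of 16, 2 rose and 2 fell in KO1 and 7 rose and 3 fell in KO2 (edgeR), with median log2 fold changes of 0.02 and 0.03. The called share was 25% in KO1 and 62.5% in KO2, near the 30.5% and 54.1% of all tested genes. Fam83h, a scaffold of keratin filament organisation, fell from 14.7 ± 0.775 FPKM (SD, n = 3) in Ctrl to 4.33 ± 0.10 in KO1 (adjusted p = 6.18e-08) and was at 13.4 ± 1.07 in KO2 (adjusted p = 0.585). Csnk1a1, the kinase that this scaffold recruits, was at 162, 149 and 161 FPKM and passed neither test. Hspb1, a small heat shock protein that associates with keratins, rose by 0.54 in KO1 and fell by 1.20 in KO2. Casp6, a caspase that cleaves type I keratins, rose by 0.68 in KO2 (adjusted p = 0.0482).

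Squamous differentiation genes were nearly silent. Of 20, 11 were listed and 2 were tested, and their summed FPKM lay between 3.59 and 5.84 in Ctrl, 3.85 and 4.85 in KO1, and 1.44 and 1.60 in KO2. Sbsn, a secreted protein of the upper epidermis, fell by 2.08 in KO2 (edgeR adjusted p = 5.38e-05), and Cdsn, the gene of corneodesmosin, fell by 0.98 (adjusted p = 0.0282). None of the tested genes of this list passed in KO1. Among all tested genes, 30.5% passed in KO1 and 54.1% in KO2.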
